A study of Mus musculus with 80 samples.

Results

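The genes described here are the nuclear genes of mitochondrial complex I, the NADH:ubiquinone oxidoreductase, measured by bulk RNA sequencing in the left ventricle of C57Bl/6J mice. They were chosen by symbol: protein-coding genes named Ndufa, Ndufb, Ndufc, Ndufs or Ndufv with a number, together with Ndufab1, and with a mean of at least 1 CPM (the count scaled to library size) over the 80 libraries. Of 40 such genes, 39 met the minimum, out of 56941 genes in the deposited count table. The gene left out was Ndufb11b, at 0.00485 CPM. The symbol takes in 2 genes that are not complex I subunits, Ndufa4, now known as a subunit of complex IV, and its paralogue Ndufa4l2, which is known to be induced by hypoxia. That left 37 subunits.

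Each sex had 40 libraries in 4 groups of 10. The Western diet groups received the Western diet, a sham field and 0 cGy. The mixed field groups received the normal diet and 50 cGy of a field that the labels call Mix, without naming its components. The gamma groups received the normal diet and 100 cGy of gamma rays. The sham groups received the normal diet, a sham field and 0 cGy, and served as the comparison for the other 3. All mice were of 1 strain and no genetic change is labelled. The labels give neither the age of the mice nor the time between exposure and collection. Library titles number the libraries of each sex 1 to 40, and every group holds 5 libraries numbered 1 to 20 and 5 numbered 21 to 40. The labels do not say what, if anything, separates these runs of title numbers. They also do not say that each library is a separate animal, so that the p-values below measure the spread between libraries.

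Complex I takes electrons from NADH in the mitochondrial matrix, passes them along a chain of iron-sulfur clusters to ubiquinone, and pumps protons across the inner membrane. It is shaped like an L. The matrix arm is built on the core subunits, among them Ndufv1, which binds the flavin, and Ndufs1 and Ndufs7, which bind iron-sulfur clusters, and the membrane arm is built around subunits made from mitochondrial DNA, the mt-Nd genes. The remaining nuclear subunits are accessory proteins that surround this core and are needed for assembly and stability. The heart depends on fatty acid oxidation and oxidative phosphorylation, and ventricular cardiomyocytes are rich in mitochondria.

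Total counts per library lay between 13484776 and 22143504, with a median of 16383718. Genes of the mitochondrial genome took 18.8 to 31.3% of the counts, and the ribosomal RNA gene Rn18s-rs5 took 0.102 to 5.03%. The library labelled female gamma replicate 7 had 0.129 CPM of Xist and 0 CPM of the Y-linked Ddx3y, so that it goes against its label in Xist. Female mixed field replicate 10 correlated least with the other libraries of its group. Myl7, an atrial light chain that marks atrial muscle beside the ventricle, was over 10 CPM in 20 libraries, all of them male. In bulk tissue, fewer cells of a type and less RNA per cell cannot be told apart.

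The levels of the genes spanned a wide range. Ndufv1, the flavin and NADH binding subunit, was among the most abundant, with a mean of 637 CPM and a range of 455 to 799 CPM over the 80 libraries. Ndufa10, a nucleoside kinase-like subunit of the membrane arm, had a mean of 557 CPM. At the other end stood Ndufb2 with a mean of 3.29 CPM, Ndufb8 with 6.19 CPM and Ndufa4l2 with 20.9 CPM. All 39 genes passed the filter on low counts that the tests used.

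**Figure D1:**
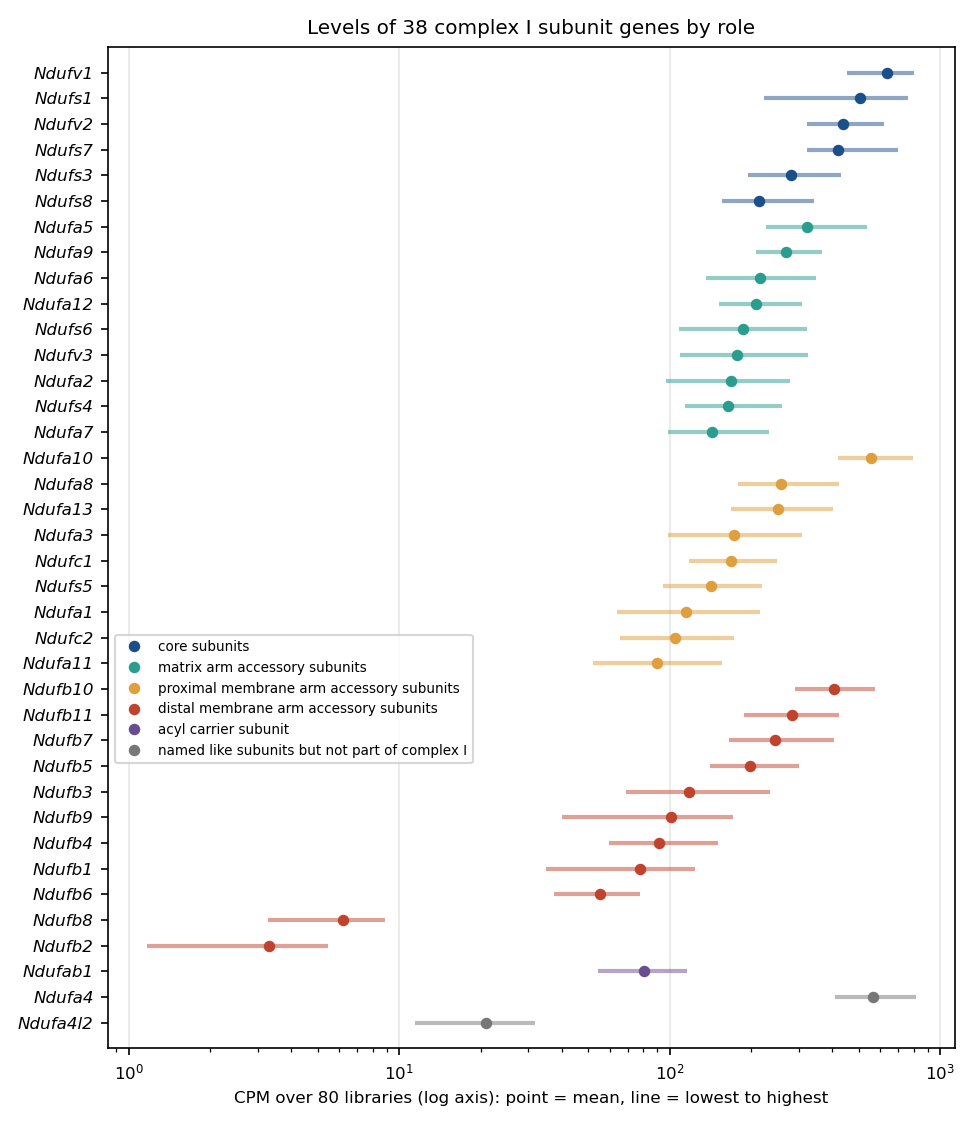
Mean expression of 38 of the 39 genes over 80 libraries, in CPM on a log axis, grouped by place in the complex. Points are means and lines span the lowest to the highest library. Ndufv1, at 637 CPM, is among the highest, and Ndufb2 and Ndufb8 stand lowest, at 3.29 and 6.19 CPM.

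To compare levels between genes, CPM was divided by the length of the canonical transcript in kb. On that scale Ndufa4 was highest at 1072 CPM per kb, followed by Ndufb10 at 555 and Ndufs7 at 506 CPM per kb. The median was 271 CPM per kb over the 7 core subunits, 186 over the 9 accessory subunits of the matrix arm, 150 over the 9 of the proximal membrane arm and 89.5 over the 11 of the distal membrane arm. The distal class was the widest, with 0.750 CPM per kb for Ndufb2 and 555 for Ndufb10.

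The low levels of Ndufb8 and Ndufb2 stand beside an overlap in the annotation. Of the coding bases of Ndufb8, 83.9% lie within a second gene on the same strand, Gm20538. For Ndufb2 the share is 46.0%, with Gm42420, and for Ndufb9 it is 37.4%, with Gm49356. All 3 overlapping genes are listed at 0 counts in every library. Whether reads shared between such genes were dropped by the counter is not given in the sources used here, and the part of the overlap in these levels was not tested. Several members also overlap an expressed gene on the other strand, among them Ndufa4l2 with Shmt2, at 46.7 CPM, and Ndufa6 with Smdt1, at 88.1 CPM. Ndufb9 overlaps Mtss1, at 35.1 CPM, over 41.5% of its canonical transcript, and Ndufb1 overlaps Cpsf2, at 23.4 CPM, over 54.8%. Both overlaps lie outside the coding bases. The strand setting of the counting is not given either, so the levels of all these genes are uncertain. The part of the genes on the other strand in the differences described below was not tested.

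Within groups, the genes varied by a standard deviation of 0.133 (Ndufa9, a subunit beside the quinone site) to 0.459 (Ndufb9) on the log2 CPM scale. Ndufb9, which carries the LYR motif that binds the acyl carrier Ndufab1, was followed by Ndufb2 at 0.439 and by Ndufb1, a very small membrane subunit, at 0.426. Each group holds both runs of title numbers, so a difference between the runs, described further on, adds to these values. Within group and run the standard deviation was 0.344 for Ndufb9, 0.400 for Ndufb2 and 0.320 for Ndufb1. As deviations from the group means over the 80 libraries, the median correlation of the 741 pairs of genes was 0.69, 540 pairs were over 0.5, and 40 were below 0. As deviations from the means of group and run, the median was 0.78, with 576 pairs over 0.5 and 36 below 0. The pairs share libraries and depth, so these values are a description. Ndufs4 with Ndufv2 had the highest correlation, 0.96, and Ndufb1 with Ndufb9 had 0.93, or 0.88 within group and run. Of the 39 genes, 35 had a correlation over 0.5 with the mean of the others. Ndufs1, the largest iron-sulfur subunit, was at −0.12, Ndufb2 at 0.07, Ndufa4l2 at 0.25 and Ndufv1 at 0.48. The lowest pair was Ndufa8 with Ndufs1, at −0.44. Genes with shorter coding sequences varied more, with a Spearman rho of −0.55 over the 39 genes between the within-group standard deviation and the coding length, and of −0.57 with the mean CPM. With the length of the canonical transcript the rho was −0.10. Within group and run these values were −0.62, −0.62 and −0.12.

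The treatments were compared with sham in 1 fit over the 8 groups, using edgeR's quasi-likelihood test with Benjamini-Hochberg adjustment over 15879 genes. A gene was called at an adjusted p under 0.05. None of the 39 genes was called in any of the 14 comparisons of treatment or sex, by edgeR, by DESeq2 or by limma voom. The numbers at an unadjusted p under 0.05 are given below with each comparison. The mean log2 CPM of the 37 subunits, without Ndufa4 and Ndufa4l2, ranged over libraries as widely within a group as it did between groups. In females its lowest, median and highest values were 7.09, 7.35 and 7.56 on the Western diet, 7.08, 7.24 and 7.81 after the mixed field, 6.94, 7.06 and 7.48 after gamma, and 6.96, 7.33 and 7.57 after sham. In males they were 7.21, 7.46 and 7.55 on the Western diet, 7.05, 7.36 and 7.91 after the mixed field, 6.91, 7.37 and 7.81 after gamma, and 7.17, 7.43 and 7.59 after sham. Female gamma had the lowest median of the 8 groups, and all the groups overlapped.

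**Figure D2:**
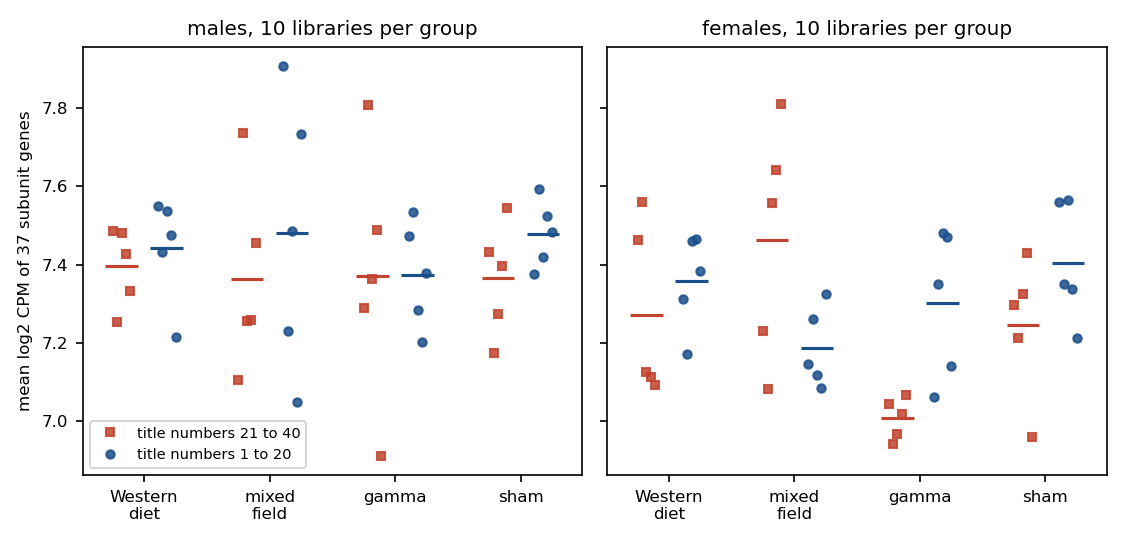
Mean log2 CPM of the 37 subunits in each library, by group, with the runs of title numbers marked. Points are libraries and bars are the means of the 5 libraries of a run. The female gamma libraries have the lowest median, 7.06, and at 6.94 to 7.48 overlap the female sham libraries at 6.96 to 7.57. The lowest single library is one of male gamma, at 6.91.

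Gamma in females gave the most one-sided set of differences, without a call. The log2 difference was below 0 for 38 of the 39 genes, with a median of −0.17. By run of title numbers the median was −0.27 with 1 gene above 0 in libraries 21 to 40 and −0.10 with 4 genes above 0 in libraries 1 to 20. Over all genes tested the median was 0.00 and 49.2% were above 0. By edgeR 0 of the 39 were called, where 0.0% of all genes were called, and 6 of the 39 had an unadjusted p under 0.05, all lower, against 10.3% of all genes. The exception to the direction was Ndufs1, at 0.05. By class, the medians were −0.12 for the core subunits, −0.17 for the matrix arm, −0.19 for the proximal and −0.19 for the distal membrane arm. Without female gamma replicate 7 and female mixed field replicate 10, the median over the 39 genes was −0.14, with 2 genes above 0.

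Ndufa4l2 had the smallest p in that comparison. It had a lowest, median and highest level of 11.5, 16.7 and 21.4 CPM in female gamma libraries, against 13.2, 19.4 and 31.7 CPM in female sham libraries. The difference was −0.31 ± 0.12 (SE, log2), with an edgeR adjusted p of 0.391. Ndufb10, a cysteine-rich subunit on the intermembrane space side, had 311, 342 and 387 CPM in female gamma libraries, against 315, 424 and 494 CPM in female sham libraries. Its difference was −0.25 ± 0.10, with an edgeR adjusted p of 0.405. In both genes the groups overlapped, with the lowest, the median and the highest library lower in gamma than in sham. The lowest difference of all was that of Ndufb9, at −0.39, and its 95% interval reached −0.78. The intervals of 37 of the 39 genes lay inside a 1.5-fold change in either direction.

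The same direction was seen among nuclear subunits of complexes II to V, where 38 of 39 differences were below 0 and the median was −0.16. The mt-Nd genes had a median of 0.07, with 4 of 7 above 0, and 18 tested assembly factors of complex I had a median of −0.11. Ventricular cardiomyocyte markers moved beside these, with 2 of 8 above 0 and a median of −0.15. Their summed level was 48729 to 60023 CPM in female gamma libraries and 50790 to 66768 CPM in female sham libraries. The part of cardiomyocyte content in these differences was not tested. No member of these lists was called.

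In males, gamma gave a median difference of −0.04, with 9 of 39 genes above 0 and none at an unadjusted p under 0.05. Of all genes, 0.176% were called in that comparison and 5.43% had an unadjusted p under 0.05. The smallest p was that of Ndufa9, at −0.09 ± 0.06 with an edgeR adjusted p of 0.971, with 208, 259 and 285 CPM in male gamma libraries against 228, 276 and 318 CPM in male sham libraries. Ndufb6 was at −0.12 ± 0.10, with 42.6, 57.2 and 73.0 CPM after gamma against 52.2, 63.6 and 68.7 CPM after sham. Without the libraries over 10 CPM of Myl7, the male median was 0.11 and all 39 genes were above 0. The male gamma and sham libraries left were all numbered 21 to 40, so Myl7 and run cannot be told apart there. Within the runs the male median was 0.01 with 25 genes above 0 in libraries 21 to 40 and −0.09 with 5 genes above 0 in libraries 1 to 20. Leaving out 1 library moved the male median between −0.10, without male gamma replicate 7, and 0.01, without male gamma replicate 10. The difference between the sexes in the gamma effect, male minus female, had a median of 0.11 with 37 genes above 0. It was 0.24 with 38 genes above 0 in libraries 21 to 40, and 0.01 with 20 genes above 0 in libraries 1 to 20. Without the libraries over 10 CPM of Myl7 it was 0.29, with 38 genes above 0. That setting puts male libraries 21 to 40 beside female libraries of both runs. In the fit of all libraries none was called, where 0.0% of all genes were, and none had an unadjusted p under 0.05, against 5.38% of all genes. Ndufa4l2 had the smallest p, at 0.32 ± 0.17 and an edgeR adjusted p of 0.932, followed by the core subunit Ndufs3 at 0.19 ± 0.13. With both sexes averaged, gamma gave a median of −0.10, with 2 genes above 0, where 0.0% of all genes were called. At an unadjusted p under 0.05 there were 5 members, all lower, against 10.9% of all genes. Without the libraries over 10 CPM of Myl7 the averaged median was −0.02, with 14 genes above 0, again with male libraries 21 to 40 only. Ndufa10 was at −0.13 ± 0.05 with an edgeR adjusted p of 0.397, and Ndufb10 at −0.17 ± 0.07 with 0.399.

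**Figure D3:**
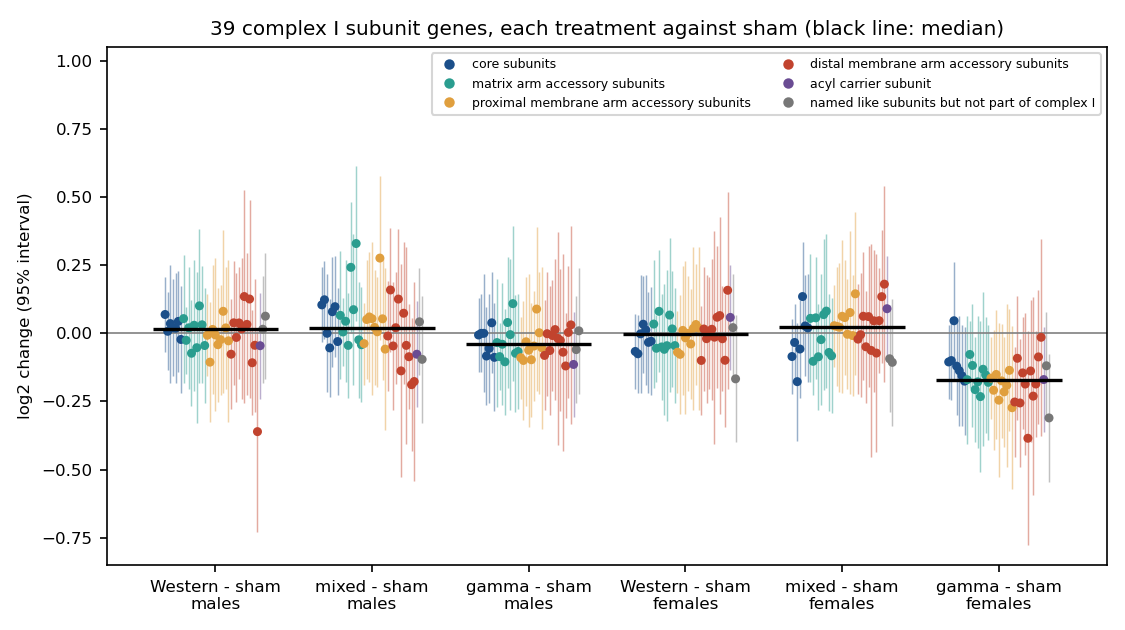
Log2 differences of the 39 genes from sham for the Western diet, the mixed field and gamma, in each sex. Each point is a gene, coloured by place in the complex, with its 95% interval as a vertical line, and the black lines are medians. The female gamma points lie almost all below 0, with a median of −0.17, and the other columns are centred between −0.04 and 0.02.

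The Western diet left the genes centred on 0. The median difference was 0.01 in males with 22 genes above 0, and 0.00 in females with 18 above 0. No member was called by edgeR and none had an unadjusted p under 0.05 in either sex, where 0.397% of all genes were called in males and 0.0189% in females. Of all genes, 12.8% in males and 7.39% in females had an unadjusted p under 0.05. Ndufb2 had the smallest p in males, with 1.17, 2.84 and 3.81 CPM on the Western diet against 1.21, 3.59 and 4.38 CPM after sham, a difference of −0.36 ± 0.19 with an edgeR adjusted p of 0.399. Ndufb6 followed, at −0.11 ± 0.10 with 0.690. All male Western diet libraries lay below the highest sham library of Ndufb2, and the groups overlapped. In females the smallest p was that of Ndufa4l2, with 14.1, 17.7 and 26.3 CPM on the Western diet against 13.2, 19.4 and 31.7 CPM after sham, at −0.17 ± 0.12 with an edgeR adjusted p of 0.775. Ndufv1 followed, at −0.08 ± 0.07. The 95% intervals lay inside a 1.5-fold change for 38 genes in males and for all 39 in females. With the sexes averaged, the median was 0.00 with 20 genes above 0, and Ndufb10 and Ndufa8 had the smallest p, both at −0.09. No member was called or had an unadjusted p under 0.05, where 0.0% and 11.4% of all genes did. Between the sexes, 0 members were called against 0.447% of all genes, and 1 had an unadjusted p under 0.05, against 9.24% of all genes. That member was Ndufb2, at −0.52 ± 0.26 with an edgeR adjusted p of 0.539. Ndufa4l2 was next, at 0.23 ± 0.17.

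The mixed field likewise gave medians of 0.02 in males and 0.02 in females, with 22 and 21 genes above 0. None was called by edgeR, where 0.0693% of all genes were called in males and 0.0% in females. In males 2 members had an unadjusted p under 0.05, both higher, against 8.17% of all genes. Ndufa2, an accessory subunit of the matrix arm with a thioredoxin-like fold, had 103, 180 and 278 CPM after the mixed field against 109, 157 and 179 CPM after sham, a difference of 0.33 ± 0.14 with an edgeR adjusted p of 0.541. Ndufs6, which binds zinc, had 135, 201 and 321 CPM after the mixed field against 140, 184 and 221 CPM after sham, at 0.24 ± 0.12 with 0.610. For both genes the mixed field libraries spread past the sham range at the top and reached below it at the bottom. In females none had an unadjusted p under 0.05, against 6.47% of all genes. The smallest p there were those of Ndufa9 at −0.10 ± 0.06, with an edgeR adjusted p of 0.824, and Ndufs1 at −0.18 ± 0.11. Averaged over the sexes, the median was 0.01 with 23 genes above 0. Ndufa2 alone had an unadjusted p under 0.05, at 0.21 ± 0.10 with an edgeR adjusted p of 0.877, and Ndufa1, an X-linked membrane subunit, followed at 0.18 ± 0.11. There 0 members were called and 0.0% of all genes were, and 5.70% of all genes had an unadjusted p under 0.05. Without the libraries over 10 CPM of Myl7 the male median was 0.17, with 37 genes above 0, and the median averaged over the sexes was 0.08, with 35 above 0. That setting puts male mixed field libraries of both runs against male sham libraries 21 to 40 only. By run, the median averaged over the sexes was 0.12 in libraries 21 to 40 and −0.11 in libraries 1 to 20.

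The female mixed field value near 0 was made of opposite values in the runs of title numbers. Among libraries numbered 21 to 40 the median difference from sham was 0.25 with 36 genes above 0, and among those numbered 1 to 20 it was −0.25 with 0 of 39 above 0. Neither run had a called member by edgeR, where 0.0253% of all genes were called in libraries 21 to 40 and 0.244% in libraries 1 to 20. At an unadjusted p under 0.05 there were 9 members in libraries 21 to 40, against 14.2% of all genes, and 12 in libraries 1 to 20, against 12.3% of all genes. In the mean log2 CPM of the 37 subunits, the female mixed field libraries numbered 21 to 40 were at 7.23, 7.08, 7.56, 7.64 and 7.81, and those numbered 1 to 20 at 7.15, 7.26, 7.12, 7.08 and 7.33. The high values are thus those of 3 libraries, among them replicate 10, the one that correlated least with its group. Without that library and female gamma replicate 7, the female mixed field median was −0.07 with 5 genes above 0. The difference between the runs in the mixed field effect was not tested.

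The difference between the sexes in the mixed field effect had a median of 0.03 with 26 genes above 0. None was called, where 0.0315% of all genes were, and none had an unadjusted p under 0.05, against 9.0% of all genes. Ndufb8, of the distal membrane arm, was at −0.32 ± 0.17 with an edgeR adjusted p of 0.576, and Ndufs6 was at 0.27 ± 0.17 with 0.660. Within the runs of title numbers the median was −0.20 in libraries 21 to 40 and 0.29 in libraries 1 to 20, and without the libraries over 10 CPM of Myl7 it was 0.23. In the last setting the male sham libraries were all numbered 21 to 40.

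Set directly against each other, the mixed field and gamma differed by a median of 0.13, averaged over the sexes, and 37 of the 39 genes were higher in the mixed field. By edgeR 0 were called, against 0.0189% of all genes, and 12 had an unadjusted p under 0.05, all higher, against 10.4% of all genes. Ndufs7, the core subunit that carries the last iron-sulfur cluster before ubiquinone, had the smallest p, at 0.20 ± 0.07 with an edgeR adjusted p of 0.335. In females it had 335, 403 and 700 CPM after the mixed field against 334, 371 and 427 CPM after gamma. In males it had 354, 433 and 599 CPM after the mixed field against 321, 398 and 562 CPM after gamma. Ndufa8, a cysteine-rich subunit on the intermembrane space side, was next at 0.19 ± 0.08 with 0.422. Nuclear subunits of complexes II to V had a median of 0.11, with 35 of 39 higher. The difference lay in libraries 21 to 40, with a median of 0.23 and 38 genes above 0, while libraries 1 to 20 gave 0.02 and 22 genes. Without the 2 libraries named above it was 0.07, with 36 genes above 0 and 1 at an unadjusted p under 0.05.

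Male sham libraries were compared with female sham libraries. The median log2 difference, male minus female, was 0.11 and 31 of the 39 genes were higher in males. None was called by edgeR, where 1.2% of all genes were. At an unadjusted p under 0.05 there were 4, against 11.9% of all genes. All 4 were higher in males: Ndufb6, Ndufa6, Ndufs5 and Ndufb9. Ndufb6, of the distal membrane arm, had 52.2, 63.6 and 68.7 CPM in male sham libraries against 37.6, 50.6 and 67.6 CPM in female sham libraries, a difference of 0.24 ± 0.10 with an edgeR adjusted p of 0.282. Ndufa6, another LYR protein that binds Ndufab1, had 203, 233 and 255 CPM in male sham libraries against 149, 191 and 249 CPM in female sham libraries, at 0.27 ± 0.11 with 0.289. The female libraries reached lower in both genes and the sexes overlapped. Atrial muscle markers moved beside this comparison, with 4 of 5 called higher in males. Their summed level was 6.84 to 642 CPM in male sham libraries and 4.30 to 16 CPM in female sham libraries. Without the libraries over 10 CPM of Myl7 the median was 0.05, with 23 genes higher in males and none at an unadjusted p under 0.05. The male sham libraries left were all numbered 21 to 40, while the female ones came from both runs. In libraries 21 to 40 alone, Ndufb1 and Ndufb9 were called, where 3.43% of all genes were.

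The members differed most between the runs of title numbers. This comparison was made in a second fit with the 8 groups divided by run, as the mean over the 4 groups of a sex, libraries 21 to 40 minus libraries 1 to 20. It compares 20 libraries with 20, with treatment balanced. The labels name no reason for a difference between the runs.

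In females 13 of the 39 genes were called, 6 higher and 7 lower, where 24% of all genes were called, 11.9% higher and 12.1% lower. The median over the members was −0.03. The 2 genes that led both belong to the distal membrane arm. Ndufb9 (chromosome 15, 58805594 to 58814819, plus strand, GRCm39) had 39.9, 53.9 and 102 CPM as lowest, median and highest in female libraries 21 to 40, against 53.1, 107 and 147 CPM in female libraries 1 to 20. It fell by 0.82 ± 0.11 on the log2 scale, with an edgeR adjusted p of 7.77e-09. Ndufb1 (chromosome 12, 101934343 to 101943331, minus strand) had 34.9, 42.4 and 90.7 CPM in libraries 21 to 40, against 47.1, 79.7 and 120 CPM in libraries 1 to 20, and fell by 0.75 ± 0.10, with an edgeR adjusted p of 1.34e-08. These were the largest differences among the 39 genes in either sex.

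The fall of Ndufb9 and Ndufb1 can be read in the single libraries. In female gamma Ndufb9 was at 51.1, 47.2, 39.9, 46.0 and 46.6 CPM in libraries 21 to 40, against 89.5, 114, 130, 68.9 and 53.1 CPM in libraries 1 to 20. In female sham it was at 63.7, 56.6, 59.6, 75.5 and 46.0 CPM in libraries 21 to 40, against 147, 109, 132, 116 and 90.1 CPM in libraries 1 to 20. In female Western diet libraries it was at 72.6, 79.5, 48.7, 49.8 and 50.5 CPM in libraries 21 to 40, against 106, 91.5, 138, 132 and 119 CPM in libraries 1 to 20. The runs did not overlap in these 3 groups. In the female mixed field group they did, with 59.5, 48.4, 77.5, 88.1 and 102 CPM in libraries 21 to 40 against 83.1, 105, 87.1, 95.5 and 112 CPM in libraries 1 to 20. Ndufb1 showed the same pattern, with runs apart in the Western diet, gamma and sham groups and overlapping in the mixed field group.

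**Figure D4:**
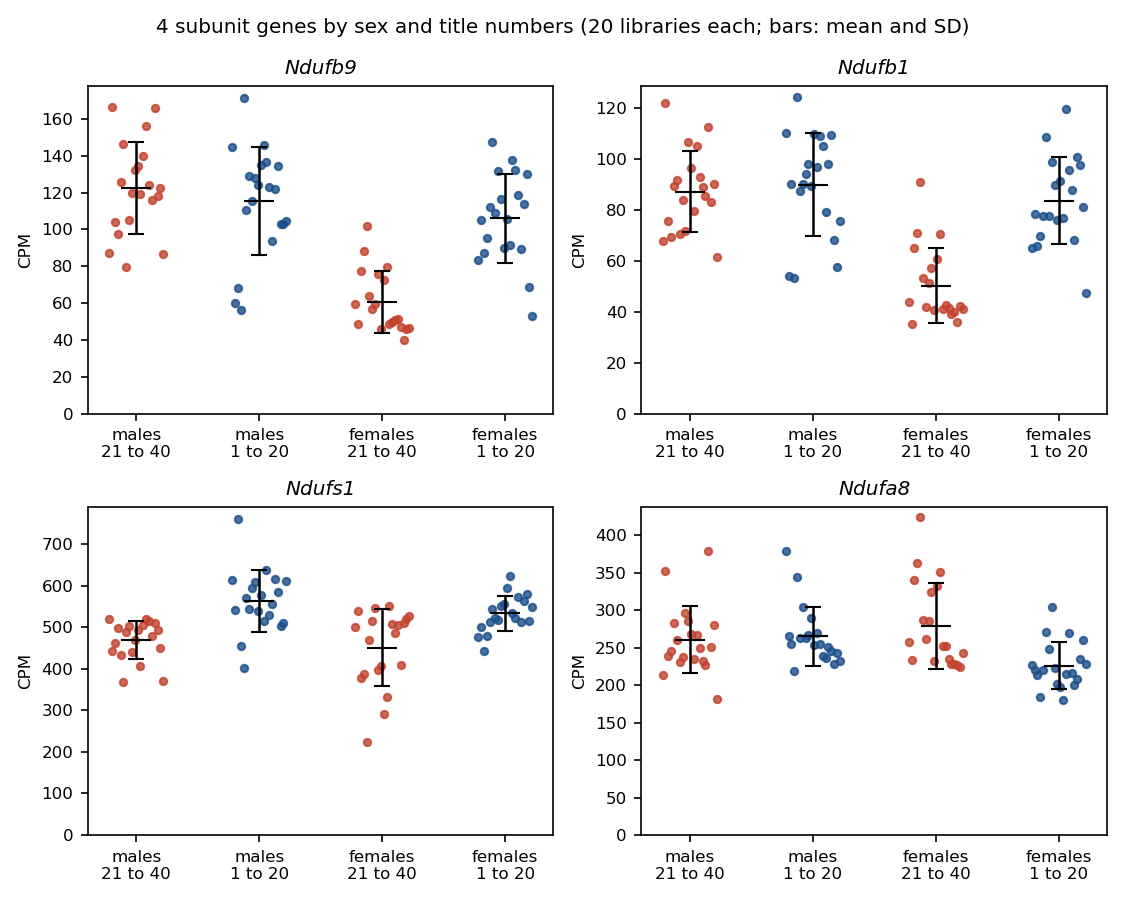
Levels of Ndufb9, Ndufb1, Ndufs1 and Ndufa8 in each library, in CPM, by sex and run of title numbers, with 20 libraries in each column. Points are libraries and bars are the mean and SD. Ndufb9 and Ndufb1 are lower in female libraries 21 to 40 than in female libraries 1 to 20, Ndufa8 is higher there, and Ndufs1 is lower in libraries 21 to 40 than in libraries 1 to 20 of both sexes.

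Other subunits rose in the same female libraries. Ndufa8 had 224, 255 and 425 CPM in libraries 21 to 40 against 179, 220 and 304 CPM in libraries 1 to 20, and rose by 0.30 ± 0.07 with an edgeR adjusted p of 0.000699. Ndufa10 had 458, 548 and 795 CPM in libraries 21 to 40 against 419, 490 and 601 CPM in libraries 1 to 20, and rose by 0.18 ± 0.05 with 0.00354. Both genes encode proximal membrane subunits, and in both the median and the highest library were higher in libraries 21 to 40. Ndufs1 moved the other way, with 224, 493 and 552 CPM in libraries 21 to 40 against 442, 528 and 624 CPM in libraries 1 to 20, and fell by 0.25 ± 0.07 with an edgeR adjusted p of 0.00451. The low libraries of Ndufs1 were high in Ndufa8. Its lowest values, 224, 291 and 332 CPM, were in mixed field replicate 10 and Western diet replicates 6 and 7, where Ndufa8 was at 425, 332 and 351 CPM. Ndufb6, of the distal arm, had 37.3, 46.9 and 76.1 CPM in libraries 21 to 40 against 46.3, 54.0 and 67.6 CPM in libraries 1 to 20, and fell by 0.21 ± 0.06 with 0.00618. In each of these 4 genes the runs overlapped. The other 7 called genes were Ndufv1, Ndufa4l2, Ndufs7 and Ndufs3, higher by 0.16 to 0.26, and Ndufa6, Ndufa7 and Ndufb5, lower by −0.24 to −0.19.

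By place in the complex, the female calls are listed beside the 11.9% of all genes called higher and the 12.1% called lower. The classes are small, so the counts are a description. Of the 7 core subunits 3 were higher, Ndufv1, Ndufs7 and Ndufs3, and 1 was lower, Ndufs1. Of the 9 proximal membrane subunits 2 were higher, Ndufa8 and Ndufa10, and none lower. Of the 11 distal membrane subunits 4 were lower, Ndufb9, Ndufb1, Ndufb6 and Ndufb5, and none higher. Of the 9 accessory subunits of the matrix arm 2 were lower, Ndufa6 and Ndufa7.

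In males 6 of the 39 genes were called, 1 higher and 5 lower, where 29.8% of all genes were called, 17% higher and 12.8% lower. The median was −0.09 and 32 of the 39 were below 0. Ndufs1 (chromosome 1, 63182058 to 63216236, minus strand, GRCm39), the core subunit that also fell in females, had 369, 484 and 520 CPM in male libraries 21 to 40, against 402, 563 and 761 CPM in male libraries 1 to 20. It fell by 0.27 ± 0.07 with an edgeR adjusted p of 0.00151. Ndufb2, of the distal membrane arm, was the gene that moved up. It had 2.24, 3.52 and 5.04 CPM in libraries 21 to 40 against 1.17, 2.41 and 4.99 CPM in libraries 1 to 20, and rose by 0.47 ± 0.12 with an edgeR adjusted p of 0.00207. Over 20 libraries each run overlapped the other in both genes.

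Ndufs3, another core subunit, had 195, 272 and 378 CPM in male libraries 21 to 40 against 247, 310 and 431 CPM in male libraries 1 to 20, and fell by 0.19 ± 0.06 with an edgeR adjusted p of 0.00941. Ndufc2, a small membrane subunit, had 65.5, 99.3 and 168 CPM in libraries 21 to 40 against 84.0, 120 and 173 CPM in libraries 1 to 20, and fell by 0.23 ± 0.07 with 0.0133. Ndufb11, which is X-linked, had 188, 255 and 345 CPM in libraries 21 to 40 against 240, 292 and 423 CPM in libraries 1 to 20, and fell by 0.21 ± 0.07 with 0.0142. All of these runs overlapped. No accessory subunit of the matrix arm was called in males.

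The difference between the sexes was then tested in the same fit, a contrast added after the data had been seen. It was called for 13 of the 39 genes, 4 higher and 9 lower as male minus female, where 26.9% of all genes were called, 14.6% higher and 12.3% lower. With 24 to 29.8% of all genes called in these 3 comparisons, the number of members called was no result about complex I in itself. The largest differences between the sexes were those of Ndufb9 at 0.91 ± 0.15 with an edgeR adjusted p of 3.02e-06 and of Ndufb1 at 0.70 ± 0.14 with 5.97e-05. In males Ndufb9 had 79.7, 121 and 167 CPM in libraries 21 to 40 against 56.1, 122 and 171 CPM in libraries 1 to 20. Male Ndufb1 had 61.5, 87.1 and 122 CPM in libraries 21 to 40 against 53.1, 92.0 and 124 CPM in libraries 1 to 20. Neither gene was called in males.

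Ndufs3 was called in both sexes and with opposite signs, lower in male libraries 21 to 40 and higher in female ones, and its difference was −0.37 ± 0.08 with an edgeR adjusted p of 0.000396. Ndufa10 had a difference of −0.28 ± 0.07 with 0.000886, and Ndufa4l2 one of −0.43 ± 0.11 with 0.00185. Also called were Ndufv1, Ndufb11, Ndufa8, Ndufs7 and Ndufa9, between −0.34 and −0.16, and Ndufb2 and Ndufa7, at 0.49 and 0.26. Ndufs1 was called in the same direction in both sexes, and its difference between them was not called.

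**Figure D5:**
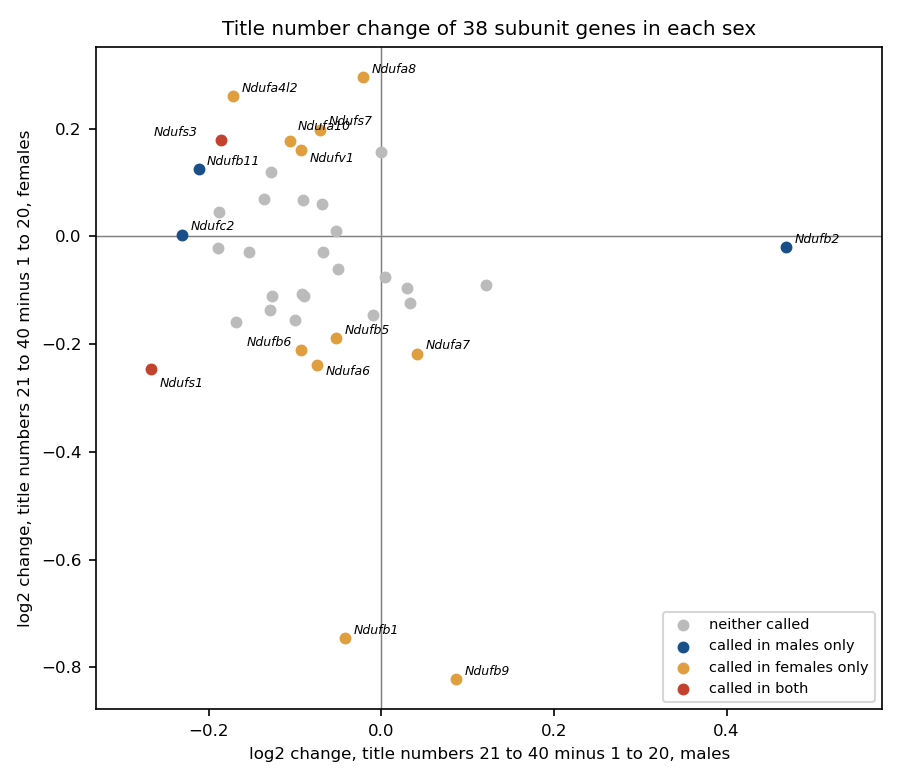
Log2 difference between libraries 21 to 40 and 1 to 20 for 38 of the 39 genes, in males on the horizontal axis and in females on the vertical axis. Colours mark genes called in both sexes, in 1 sex or in neither. Ndufb9 and Ndufb1 lie at the bottom, at −0.82 and −0.75 in females, Ndufb2 lies far to the right, at 0.47 in males, and Ndufs1 and Ndufs3 were called in both.

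The share of counts on Rn18s-rs5 moved with the runs, and in opposite directions in the sexes. In males its median was 1.65% (1.09 to 3.29) in libraries 21 to 40 and 0.351% (0.161 to 2.26) in libraries 1 to 20. In females it was 0.484% (0.400 to 0.776) in libraries 21 to 40 and 3.57% (0.102 to 5.03) in libraries 1 to 20. Rn18s-rs5 stands for an RNA that lacks the poly-A tail by which the protocol selects. With the share added as a term for each sex, an alternative chosen after seeing the data, 0 members were called in males, with 1 at an unadjusted p under 0.05, and 2 in females, Ndufb9 and Ndufb1. The difference between the sexes then had 0 called members, with 7 at an unadjusted p under 0.05. The calls over all genes dropped as well, to 3.31% in males, 2.7% in females and 3.79% in the difference. Since the share moved with the run, their parts in these differences cannot be told apart.

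The start sites of a few of these genes are shown because nuclear genes of the respiratory chain are known targets of NRF1, whose palindromic site reads GCATGCGC in its core, and because the female differences ran both ways. Promoter windows were available for 34 of the 39 genes in RefSeq sequence of build GRCm38.p6, from 250 bases before to 50 after the start. The 100 bases before the start are printed 5′ to 3′ on the gene's strand, with GCATGCGC on either strand in capitals. Ndufa8 lies at chr2:36049339-36049438 on the minus strand, Ndufa6 at chr15:82354292-82354391 on the minus strand, Ndufa11 at chr17:56717662-56717761 on the plus strand and Ndufb1 at chr12:101975739-101975838 on the minus strand.
Ndufa8: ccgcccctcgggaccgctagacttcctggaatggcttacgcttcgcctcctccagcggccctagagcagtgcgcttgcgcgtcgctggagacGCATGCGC
Ndufa6: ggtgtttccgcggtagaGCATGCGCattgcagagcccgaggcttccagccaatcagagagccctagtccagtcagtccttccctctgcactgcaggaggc
Ndufa11: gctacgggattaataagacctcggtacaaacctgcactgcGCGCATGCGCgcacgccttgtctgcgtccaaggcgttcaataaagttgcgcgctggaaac
Ndufb1: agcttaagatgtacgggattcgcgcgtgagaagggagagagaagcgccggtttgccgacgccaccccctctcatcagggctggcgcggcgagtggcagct

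Ndufa8, Ndufa6 and Ndufa11 were the 3 members of 34 whose window held GCATGCGC, against 3.05% of 27025 symbols in the table. In Ndufa8 the match began 8 bases before the start, in Ndufa6 83 bases before it, and in Ndufa11 there were 2 overlapping matches from 60 bases before it. Of these, Ndufa8 rose and Ndufa6 fell in female libraries 21 to 40, and Ndufa11 was not called. Ndufb1, which fell most beside Ndufb9, held no such match. Ndufb9 itself, Ndufs1, Ndufa4l2 and Ndufa2 were among the genes without a window and were not searched. CCGGAAGT, an ETS-type motif, was found in 1 member, Ndufs3, against 4.31% of symbols, and TCAAGGTCA, of the estrogen-related receptors, in 0 members and in 126 of the 27025 symbols. ATGGCGGC, of YY1 type, was found in 6 members, Ndufa7, Ndufa9, Ndufb5, Ndufs4, Ndufs6 and Ndufs7, against 2.6% of symbols. All motifs were searched on both strands, and a match of letters is a description of the window.

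The genes that work with these subunits were also compared between the runs. Of all genes, 17% were called higher and 12.8% lower in males, and 11.9% higher and 12.1% lower in females. In the difference between the sexes 26.9% of all genes were called. Of the 7 mt-Nd genes, which encode the membrane core, 5 were higher in female libraries 21 to 40 with a median of 0.34, and 4 were lower in male libraries 21 to 40 with a median of −0.22. The sexes differed in 5 of 7, with a median of −0.65 as male minus female. In females mt-Nd6 was at 0.46, mt-Nd4l at 0.45 and mt-Nd3 at 0.45. In males mt-Nd5 was at −0.39, mt-Nd6 at −0.38 and mt-Nd2 at −0.26. The genes mt-Nd5 and mt-Nd6 overlap on opposite strands, so reads of these 2 cannot be told apart without the strand setting.

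Of 18 tested assembly factors, which build complex I and are not part of it, 9 were lower in male libraries 21 to 40, among them Aifm1 at −0.16, Tmem70 at −0.18 and Tmem126b at −0.13. In females 1 was higher, Dmac1 at 0.14, and 1 lower, Tmem186 at −0.15. These counts stand beside 12.8% of all genes called lower in males, and 11.9% higher and 12.1% lower in females. Of 39 nuclear subunits of complexes II to V, 11 were lower in males and none higher, led by Uqcrc2 of complex III at −0.27. In females 6 were higher and 11 lower, with Cox7a1 at −0.62, Cox8b at −0.61 and Cox7c at −0.43, all subunits of complex IV. Of 12 regulators of mitochondrial genes, 4 were lower in female libraries 21 to 40, among them the coactivators Ppargc1b at −0.58 and Ppargc1a at −0.33 and the nuclear receptor Esrrg at −0.32. In males 2 were higher, Pprc1 at 0.20 and Gabpb1 at 0.14, and 1 was lower, Esrra at −0.19, where 17% of all genes were called higher and 12.8% lower.

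Markers of other cell types were counted in males first. Between the runs, 29.8% of all genes were called in males and 24% in females. Fibroblast markers were lower for 3 of 5, with a summed level of 391 to 937 CPM in male libraries 21 to 40 and 522 to 1447 CPM in male libraries 1 to 20. Atrial muscle markers were higher for 1 of 5 and lower for 3. Their summed level had a median of 10.03 CPM in libraries 21 to 40 and 164 CPM in libraries 1 to 20. It spanned 6.84 to 2057 CPM and 10.1 to 1010 CPM, and the 2057 CPM was that of male mixed field replicate 8. In male libraries 21 to 40, only that library, sham replicate 6 and gamma replicate 10 were over 10 CPM of Myl7. In male libraries 1 to 20, all but mixed field replicates 1, 3 and 5 were. Myl7 and run thus largely coincided in males. Adipocyte markers were lower for 3 of 3 tested. In females 3 of 6 tested smooth muscle and pericyte markers were higher and 1 lower, with 723 to 1233 CPM in libraries 21 to 40 and 913 to 1143 CPM in libraries 1 to 20. Of the 8 ventricular cardiomyocyte markers 1 was higher and 1 lower in each sex. Their summed level was 55425 to 73026 CPM in male libraries 21 to 40 and 45471 to 68049 CPM in male libraries 1 to 20. In females it was 55104 to 69886 CPM in libraries 21 to 40 and 48729 to 64865 CPM in libraries 1 to 20. Summed endothelial markers had medians, libraries 21 to 40 against 1 to 20, of 915 against 799 CPM in males and 845 against 777 CPM in females. For erythroid markers these were 415 against 184 CPM in males and 275 against 399 CPM in females. The part of these markers in the differences of the subunits was not tested.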

How the data were processed

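Left ventricular RNA was isolated on RNeasy columns, poly-A selected, made into libraries with NEBNext Ultra II and sequenced in pairs on a NovaSeq-6000, per the labels' protocols. The submitters' processing notes name FastQC 0.11.9, STAR 2.7.8a and GRCm39. No source used here gives the counter, its strand setting or its annotation. The authors deposited a table of raw counts per gene. Members and gene lists were chosen with earlier results of these data known. CPM uses library sizes scaled by TMM. Tests used edgeR 4.0.16 in R 4.3.3 (filterByExpr, quasi-likelihood F test, Benjamini-Hochberg over all genes), with DESeq2 1.42.0 and limma 3.58.1 as alternatives, and were tested on simulated data. SE is the log2 change over the square root of F. Every member was counted, and the values of 1 member by itself are not reported here. Full values were given for up to 6 called members of smallest p per comparison, or the 2 of smallest unadjusted p where none was called. Other lists were given by counts with up to 3 examples. Replicates 1 to 5 of a group are title numbers 1 to 20 and replicates 6 to 10 are 21 to 40. Gene positions and lengths came from an annotation of GRCm39, which matched 56323 of 56941 genes, and promoters from RefSeq on GRCm38.p6. No pair of libraries in a group agreed within sampling noise (chi-square per degree of freedom of at least 1.62).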

Additional observations from a re-analysis of the deposited data

Results flagged for a closer look

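Each of the 39 genes was examined in each group of 10 libraries for a single library far from the rest, by Dixon's criterion. Of 312 such groups, 18 had one (5.77%), where chance gives about 1 in 20. The genes share libraries and vary together, so the 312 are not independent and this share cannot be judged against chance. Many of the 18 came from the same libraries. The flagged values involved 16 genes and are given in CPM. Male gamma replicate 7 stood high in 6 genes: Ndufa11 at 156.2, Ndufa12 at 307.8, Ndufa7 at 233.8, Ndufa8 at 378.6, Ndufab1 at 113.9 and Ndufv3 at 271.0. Female mixed field replicate 10, which correlated least with its group, was high in Ndufa5 at 538.6, Ndufb6 at 76.09 and Ndufs8 at 340.9, and low in Ndufs1 at 223.7. Female gamma replicate 7, whose Xist level goes against its label, was low in Ndufs1 at 410.0. The others were Ndufa11 at 58.25 in male Western diet replicate 5, Ndufa4l2 at 31.22 in male mixed field replicate 5, Ndufb10 at 303.5 in male sham replicate 7 and Ndufv1 at 454.6 in male gamma replicate 10. In females they were Ndufa9 at 365.8 in sham replicate 9, Ndufb11 at 419.4 in gamma replicate 4 and Ndufb8 at 8.724 in gamma replicate 3.

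The difference between libraries 21 to 40 and 1 to 20 was itself different in the sexes for 13 genes by edgeR's quasi-likelihood test. Among those reported here, as male minus female on the log2 scale, it was 0.9082 for Ndufb9, 0.7039 for Ndufb1, 0.4895 for Ndufb2 and 0.259 for Ndufa7. It was −0.432 for Ndufa4l2, −0.3656 for Ndufs3, −0.337 for Ndufb11, −0.3167 for Ndufa8, −0.2843 for Ndufa10, −0.2693 for Ndufs7, −0.2534 for Ndufv1 and −0.1597 for Ndufa9. Of all genes tested, 26.9% were called in this comparison.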

How the results depend on the processing

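In the 14 comparisons of treatment or sex the count of called members was 0 under every alternative run (RLE size factors, no filter on low counts, DESeq2, limma voom, mitochondrial genes left out, a term for the run, either run alone, the Rn18s-rs5 share with the run, libraries left out), with the exception of males against females in sham, where libraries 21 to 40 alone gave 2. With each library left out in turn the count stayed at 0, and the median for gamma in females lay between −0.22 and −0.13. The median for the mixed field was −0.07 in females without female mixed field replicate 10 and −0.03 in males without male mixed field replicate 1, and that of the mixed field minus gamma was 0.08 without female mixed field replicate 10. The male minus female gamma effect had a median of 0.06 without male gamma replicate 7 and of 0.18 without female gamma replicate 4. For the runs in males, 6 called members became 10 without female gamma replicate 7 and female mixed field replicate 10, and 0 with the Rn18s-rs5 share as a term, chosen after seeing the data. Leaving out 1 library gave 6 to 11 in males, with 11 without male mixed field replicate 2, male sham replicate 10 or male gamma replicate 7, and 10 without any of male mixed field replicate 4, male sham replicate 1, male Western diet replicate 4, female Western diet replicates 1, 2, 5 and 8, female gamma replicates 2, 4 and 6, female mixed field replicate 10 and female sham replicates 6 and 8. In females it gave 12 to 16 and for the difference 12 to 14. The Rn18s-rs5 share left 2 in females and 0 in the difference, where Ndufb2 reversed to −0.0548 with an edgeR adjusted p of 0.923; the cause was not tested. Ndufs3 in females lost its call without female mixed field replicate 10 (adjusted p 0.0571). Ndufb5 in females, and Ndufa9 and Ndufa7 in the difference, lost theirs without any of 4 libraries each. The difference for Ndufa9, Ndufb2 and Ndufa7 was not called without the filter on low counts.

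Male and female libraries share title numbers. As a replicate block in sham these gave 0 called members and a median of 0.11, with 31 genes higher in males, as without the block. Deviations of same-numbered libraries from their group means had a median correlation of 0.02 over 40 pairs, with 8 over 0.1. These deviations still hold the difference between the runs, so they cannot settle whether the numbers pair the samples. At totals of 13484776 to 22143504 counts, Ndufb2, at 3.29 CPM, had the fewest counts of the members, and its SE for the Western diet in males was 0.19 on the log2 scale, against 0.06 for Ndufa9 after gamma.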
